A study of Mus musculus with 20 samples.

Results

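RNA of tumour-infiltrating CD8+ T cells was compared between 2 antibodies given alone, ABL503 and pembrolizumab, as 5 libraries against 5 of the 20 in the series, over the 11794 of 45777 gene symbols that reached 1 FPKM in at least 5 libraries. FPKM scales fragments by transcript length and library size; the unit was inferred from the values. ABL503 is bispecific, with binding sites for PD-L1 and for the costimulatory receptor 4-1BB, whereas pembrolizumab binds and blocks PD-1. All mice were C57BL/6 with human PD-1, human PD-L1 and human 4-1BB. They all bore tumours of MC38, a line from a mouse colon carcinoma, whose cells overexpressed human PD-L1. Mice were randomised at a mean tumour volume of 150 to 200 mm3, and CD8+ cells were sorted at day 4 after treatment with ABL503, with pembrolizumab, with both (the Combination) or with neither (Control). Age, sex, dose and the Control agent are not given in the labels. The labels do not say whether the 5 libraries of a group came from 5 mice, so the spread behind each p-value may be technical. How reads from the human sequence in the mice were assigned is not stated, so values of Pdcd1, Cd274 and Tnfrsf9 are those of the mouse gene models.

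PD-1 is an inhibitory receptor of activated T cells, and its blockade lets signals through the antigen receptor and CD28 act for longer. 4-1BB, encoded by Tnfrsf9, belongs to the tumour necrosis factor (TNF) receptor superfamily. On ligation it recruits TRAF adaptors and activates NF-kB, and in CD8+ T cells it is known for supporting survival and expansion. An antibody that binds PD-L1 with one arm and 4-1BB with the other is designed to cluster 4-1BB where PD-L1 is present.

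The markers of the sort were high in both groups. Cd8a, the CD8 alpha chain, ran from 283 to 345 FPKM in ABL503 and from 309 to 345 in Pembrolizumab, and Cd3e, a chain of the T-cell receptor complex, from 203 to 241 and from 217 to 266. Neither passed the test described below (log2 difference -0.08 and -0.12, limma adjusted p = 0.81 and 0.72). Cd4 reached at most 0.63 FPKM, the NK-cell gene Ncr1 0.471, the fibroblast gene Col1a1 0.045 and the macrophage genes Csf1r and Adgre1 0.285 and 0.259. Other myeloid genes were present: Lyz2, the lysozyme of myeloid cells, reached 39.3 FPKM in ABL503 and 29.9 in Pembrolizumab, Cd68 36.8 and 30.1, and Cd14 20.5 and 15.1. Column sums of the table ran from 575918 to 643592 in ABL503 and from 612570 to 654333 in Pembrolizumab. Without read depth, values carry no counting interval.

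Of the 11794 genes, 151 (1.28%) differed between ABL503 and Pembrolizumab at a Benjamini-Hochberg adjusted p under 0.05 in limma. Of these, 102 (0.865%) were higher and 49 (0.415%) lower in ABL503. The difference is that of mean log2(FPKM + 1), ABL503 minus Pembrolizumab, which understates the fold of genes at low levels. Its median over all genes tested was 0.02. In bulk libraries of sorted cells, another share of a CD8+ subset and another amount of RNA per cell cannot be told apart. Among the 102 higher genes 24 had a difference of 1 or more, and among the 49 lower genes 13 had one of -1 or below. The ranges of the 5 and 5 libraries did not overlap for 87 of the 102 and 41 of the 49, beside 3.73% of all genes without overlap (2.55% with ABL503 above and 1.18% below). The split moved with scaling: equal column sums gave 154 higher and 43 lower, quantile normalization 73 and 54, and no filter on low values 53 and 14. Weights for library quality gave 193 and 108.

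The number of genes that passed moved when single libraries were left out, and the cause was not tested. The count was 54 without ABL503 2, 76 without ABL503 3, 78 without ABL503 4 and 82 without ABL503 5, and 218 without ABL503 1. It was 73 without Pembrolizumab 1, 87 without Pembrolizumab 3 and 80 without Pembrolizumab 4, against 119 and 108 without Pembrolizumab 2 and 5. Of the called genes, 36 higher and 11 lower in ABL503 passed in all 20 fits that left out 1 library each. The genes with the largest differences below are drawn from these. Each gene was also refitted under 8 other settings, so that 28 alternatives stand beside each call. A called gene whose values are given below with no such fit mentioned passed in all 28. The alternatives cover only the contrast of ABL503 with Pembrolizumab. Values against Control come from the main fit alone and were not refitted.

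**Figure D1:**
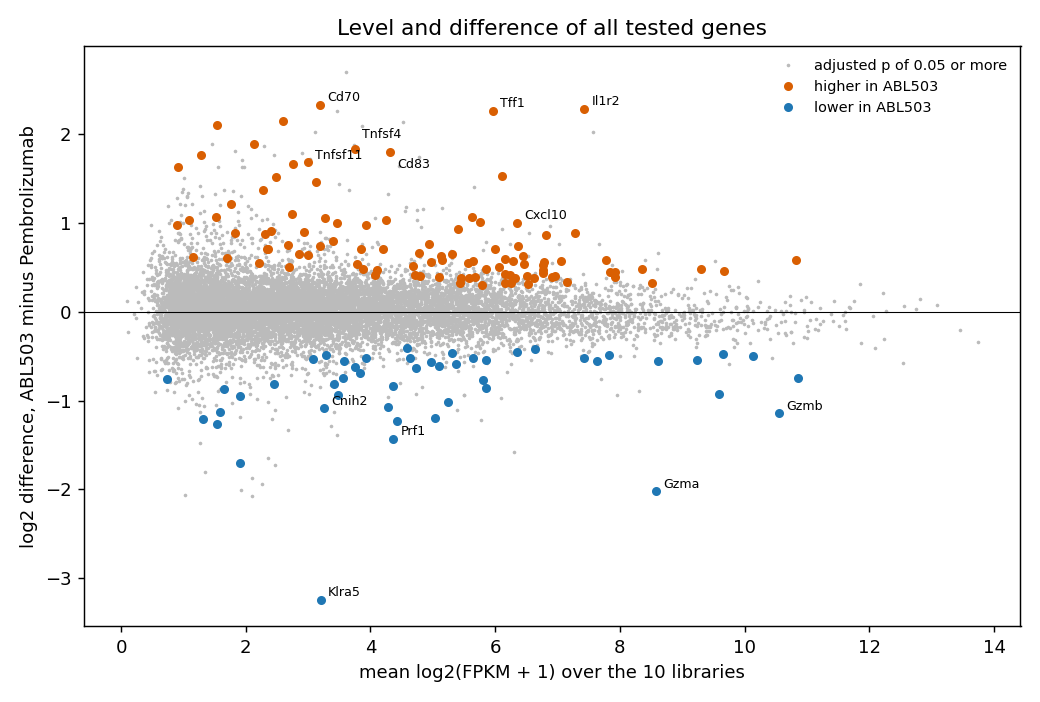
Mean log2(FPKM + 1) over the 10 libraries (x axis) against the log2 difference, ABL503 minus Pembrolizumab (y axis), for all 11794 genes. Orange points mark the 102 genes higher and blue points the 49 genes lower in ABL503 at an adjusted p under 0.05; labelled genes include Il1r2 at 2.28, Gzma at -2.02 and Klra5 at -3.24.

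Against Control, 73 genes (0.619%) passed for ABL503 and 655 (5.55%) for Pembrolizumab. These counts were not tested against each other, and how far they move with single libraries was not examined. The 2 comparisons share the Control libraries, so values against Control are given side by side below, with no test of the one against the other.

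Costimulatory ligands of the TNF superfamily, proteins by which one cell engages a TNF receptor on another, were in part higher in ABL503. Of 10 ligands tested, 4 were higher and none lower, and the median difference was 0.39.

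Cd70, the ligand of CD27, was the gene with the largest difference among the higher genes drawn. It was at 13.9, 17.6, 27.6, 18.0 and 23.0 FPKM in ABL503 1 to 5 and at 4.31, 2.11, 1.89, 7.81 and 1.74 in Pembrolizumab 1 to 5. Every ABL503 library was above every Pembrolizumab library. The log2 difference was 2.32 (SE 0.46, adjusted p = 0.015), and the means stood 5.61-fold apart. Only without the filter on low values did the call end (adjusted p = 0.057; range over the 28 alternatives 0.0047 to 0.057). Control averaged 2.12 ± 1.48 FPKM (SD, n = 5, as for every mean below) and the Combination 13.5.

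Tnfsf4 encodes OX40 ligand, the partner of the receptor OX40. It was at 25.5, 20.2, 24.9, 20.1 and 32.5 FPKM in ABL503 and at 5.89, 6.64, 5.005, 4.56 and 9.32 in Pembrolizumab, again without overlap. The log2 difference was 1.83 (SE 0.29, adjusted p = 0.0050). Against Control, at 5.002 ± 2.46 FPKM, Tnfsf4 was higher in ABL503 by 2.22 (adjusted p = 0.0014), while the difference of Pembrolizumab was 0.39 (adjusted p = 0.50).

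Tnfsf11 encodes RANKL, the ligand of RANK. It was at 7.21, 11.7, 16.6, 16.5 and 17.7 FPKM in ABL503 and at 5.55, 2.45, 2.28, 3.99 and 3.86 in Pembrolizumab. ABL503 1 was the lowest of its group and Pembrolizumab 1 the highest of the other, and the groups did not overlap (log2 difference 1.68, SE 0.31, adjusted p = 0.012). Control lay between them at 6.45 ± 1.69, and neither antibody passed against it (adjusted p = 0.22 for ABL503 and 0.21 for Pembrolizumab).

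Ltb, lymphotoxin beta, averaged 162 ± 11.1 FPKM in ABL503 and 111 ± 24.3 in Pembrolizumab (log2 difference 0.57, SE 0.13, adjusted p = 0.036). Pembrolizumab 3, at 152 FPKM, lay inside the ABL503 range of 146 to 177. The call of Ltb ended in 12 of the 28 alternatives (adjusted p 0.010 to 0.094 over all of them). These included the fits without ABL503 1, 2, 3, 4 or 5 and without Pembrolizumab 1, 2, 4 or 5, with an adjusted p of 0.052 to 0.089. They also included the fit with a block for the replicate number (0.057), the fit of the 10 libraries alone (0.057) and the fit without a filter.

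None of the 9 TNF receptors tested passed in either direction, and their median difference was 0.16. The members with the smallest p were Fas, the death receptor, at 70.3 ± 7.84 FPKM in ABL503 and 43.8 ± 9.66 in Pembrolizumab (log2 difference 0.69, adjusted p = 0.10), and Tnfrsf4, which encodes OX40, at 417 ± 61.7 and 286 ± 93.2 (0.58, adjusted p = 0.21). Tnfrsf26 and Tnfrsf25 differed by 0.43 and 0.31 (adjusted p = 0.40 and 0.65). Fas passed when only the 10 libraries were fitted (adjusted p = 0.045; range over the alternatives 0.039 to 0.27).

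Of 9 genes for the antibody targets and their partners, 1 was lower in ABL503 and none higher, with a median of 0.04. The lower gene was Tnfrsf9 itself, whose mouse gene model spans chr4:150920155-150946104 (GRCm38). It was at 161, 139, 167, 163 and 183 FPKM in ABL503 and at 293, 246, 236, 184 and 243 in Pembrolizumab. Pembrolizumab 4, the lowest of its group at 184.3, was just above ABL503 5 at 183.3, so the ranges did not overlap but nearly met. The log2 difference was -0.55 (SE 0.12, adjusted p = 0.020). Control stood at 107 ± 13.6, below both, and both antibodies were higher than it, by 0.60 for ABL503 (adjusted p = 0.014) and by 1.15 for Pembrolizumab (adjusted p = 1.1e-05). The call ended without ABL503 2 (adjusted p = 0.070), without Pembrolizumab 1 (0.067) and without a filter (0.059), and its adjusted p ran from 0.0051 to 0.070 over the alternatives.

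The other targets did not pass. Pdcd1, encoding PD-1, averaged 40.6 ± 8.06 FPKM in ABL503 and 48.1 ± 10.9 in Pembrolizumab (log2 difference -0.23, adjusted p = 0.72). Cd274, encoding PD-L1, averaged 24.02 ± 5.96 and 20.5 ± 3.23 (0.20, adjusted p = 0.66). Tnfsf9, the natural ligand of 4-1BB, averaged 39.4 ± 10.1 and 28.9 ± 4.90 (0.41, adjusted p = 0.53), and Pdcd1lg2, the second PD-1 ligand, 5.69 ± 1.33 and 6.77 ± 0.866 (-0.23, adjusted p = 0.60).

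**Figure D2:**
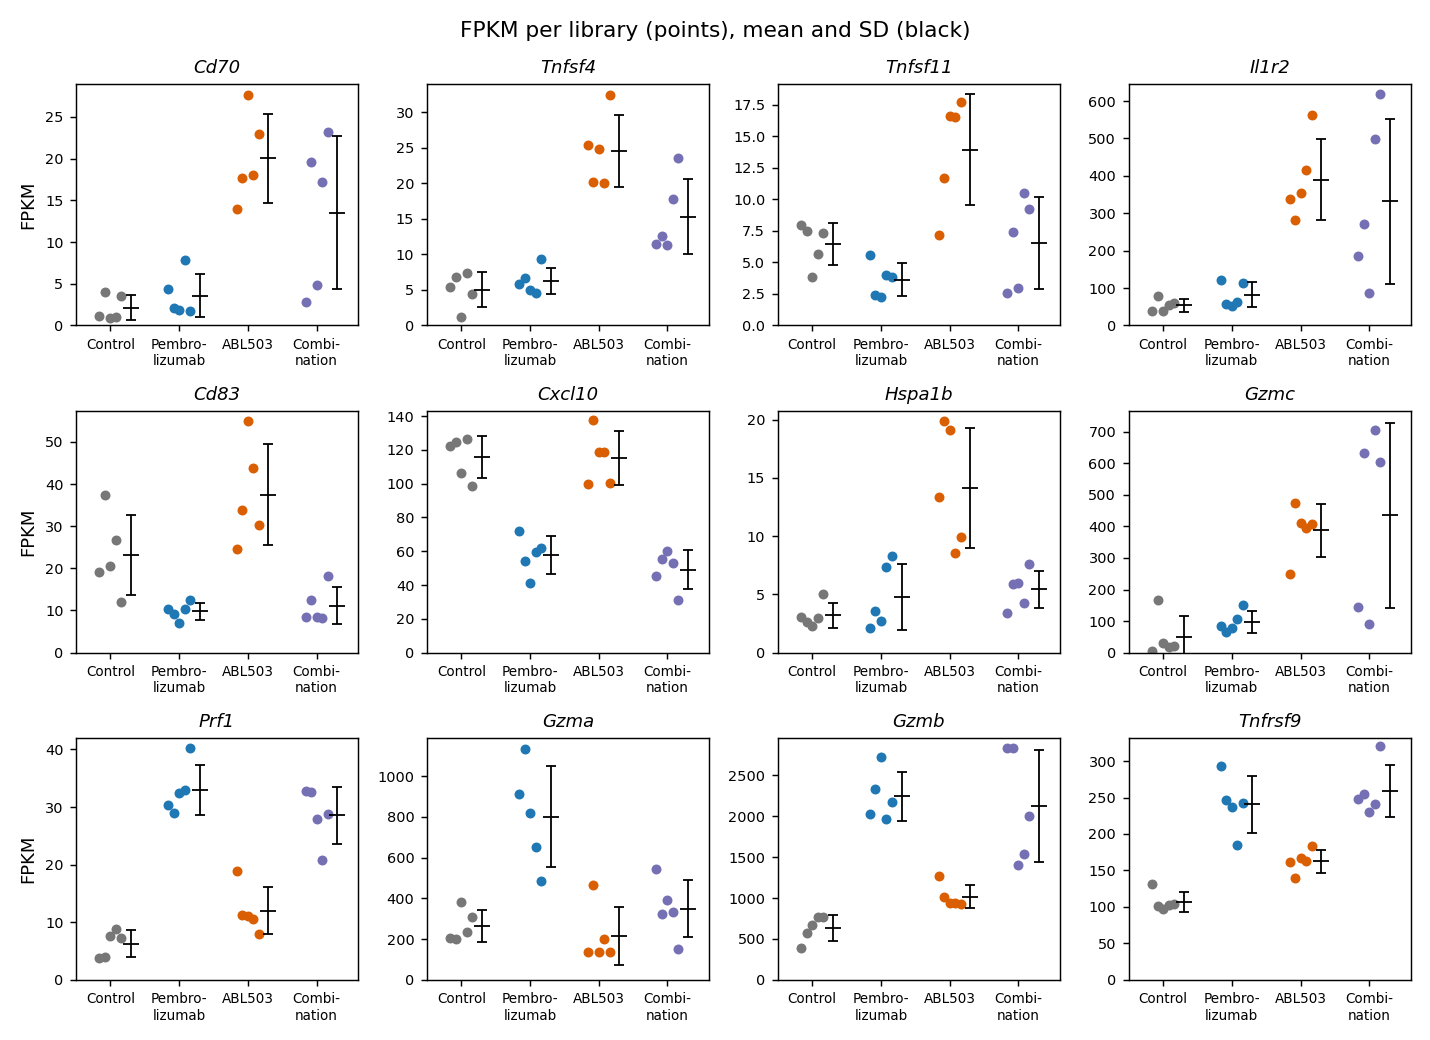
FPKM of 12 genes (y axes, linear, from 0) in the 5 libraries of each group (points, replicates 1 to 5 from left to right), with mean and SD in black; the SD of Gzmc in Control reaches below 0 and is cut at the axis. The upper row and Cd83 are highest in ABL503 among the single agents, Prf1, Gzma and Gzmb in Pembrolizumab, and Cxcl10 in Pembrolizumab sits at 41.4 to 71.8, below every Control and ABL503 library.

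Cytotoxic granules hold perforin, which opens the target membrane, and granzymes, the serine proteases that enter through it. Of 9 tested genes for perforin and granzymes, 3 were lower in ABL503 and none higher. The list median was 0.06, because the members did not move together: 5 differences were positive and 4 negative, from -2.02 for Gzma to 2.02 for Gzmc.

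Prf1, perforin (chr10:61297751-61304684), was at 18.9, 11.3, 11.1, 10.6 and 8.01 FPKM in ABL503 and at 30.3, 28.9, 32.4, 33.0 and 40.2 in Pembrolizumab. The groups lay far apart, with ABL503 1 the highest of its own. The log2 difference was -1.43 (SE 0.21, adjusted p = 0.0045), a 2.75-fold higher mean in Pembrolizumab. Control stood at 6.30 ± 2.27; Pembrolizumab was higher than it by 2.27 (adjusted p = 4.9e-06), and ABL503 by 0.84, which did not pass (adjusted p = 0.075).

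Gzma, granzyme A (chr13:113093824-113100981), was at 135, 465, 135, 202 and 138 FPKM in ABL503 and at 911, 1134, 820, 651 and 487 in Pembrolizumab. ABL503 2 stood above the rest of its group and just below Pembrolizumab 5. The log2 difference was -2.02 (SE 0.34, adjusted p = 0.0055). Control, at 265 ± 77.8, was close to ABL503 (difference -0.44, adjusted p = 0.66) and below Pembrolizumab (1.58, adjusted p = 0.0095).

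Gzmb, granzyme B (chr14:56258836-56262334), was the most abundant of these, at 1266, 1007, 942, 944 and 927 FPKM in ABL503 and at 2030, 2333, 2722, 1970 and 2177 in Pembrolizumab. The log2 difference was -1.14 (SE 0.20, adjusted p = 0.0061), with no overlap. In Control it averaged 633 ± 162, and Pembrolizumab was higher by 1.86 (adjusted p = 2.3e-05) and ABL503 by 0.72 (adjusted p = 0.13).

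Gzmc, granzyme C, lay the other way. It was at 248, 473, 411, 396 and 409 FPKM in ABL503 and at 85.4, 64.2, 78.5, 106 and 151 in Pembrolizumab. Although the groups did not overlap, the difference of 2.02 (SE 0.63) did not pass (adjusted p = 0.13) in the fit of all 20 libraries. Control averaged 48.1 with an SD of 67.0, and the Combination averaged 436. In the fit of the 10 libraries alone Gzmc passed (adjusted p = 0.0018), and over the alternatives its adjusted p ran from 0.0018 to 0.34. Gzmd, Gzme and Gzmf, named here after their values were seen, differed by 0.37, 0.78 and 0.09 (adjusted p = 0.87, 0.55 and 0.98). Granzymes C to G are close copies of each other, and how reads shared between them were counted is not stated.

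Of 14 genes for the release of granules and for death ligands, none passed, and the median was -0.03. Nkg7, a granule membrane protein of cytotoxic cells, had the smallest p, at 4935 ± 735 FPKM in ABL503 and 7321 ± 655 in Pembrolizumab (log2 difference -0.58, SE 0.16, adjusted p = 0.076). Its ranges did not overlap, and it passed in 4 of the 28 alternatives (adjusted p 0.012 to 0.21). Rab27a, a GTPase that docks granules, differed by 0.40 (adjusted p = 0.21), Stxbp2, a fusion protein of the release machinery, by -0.29 (0.33), and Serpinb6b, a serpin of the group that inhibits proteases, by -0.31 (0.37).

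Receptors of the NK type, lectin-like receptors that cytotoxic T cells take up with activation, gave no call among the 10 tested. Their median was -0.21, with 8 negative and 2 positive differences. Klrd1, encoding CD94, averaged 254 ± 50.2 FPKM in ABL503 and 356 ± 36.5 in Pembrolizumab (-0.50, adjusted p = 0.15). Klre1, Klrk1 (encoding NKG2D) and Klrc2 differed by -0.57, -0.44 and -0.22 (adjusted p = 0.22, 0.25 and 0.47).

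Klra5, a Ly49 receptor gene outside that list, had the largest difference of the genes drawn. It was at 3.12, 3.88, 0.984, 3.30 and 0.414 FPKM in ABL503 and at 44.8, 59.8, 15.7, 41.3 and 8.31 in Pembrolizumab. No library overlapped (log2 difference -3.24, SE 0.55, adjusted p = 0.0061). Control was at 2.72 ± 3.03 and the Combination at 3.97, so Pembrolizumab had the highest mean of the 4 groups. Ly49 genes are close copies of each other, and how reads shared between them were counted is not stated.

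Inhibitory receptors and exhaustion genes gave 1 lower gene of 14 tested and a median of -0.01. Cd160, an immunoglobulin-family receptor of cytotoxic cells, averaged 33.4 ± 6.72 FPKM in ABL503 and 50.1 ± 5.44 in Pembrolizumab (-0.59, SE 0.14, adjusted p = 0.046). ABL503 2, at 43.5 FPKM, lay just above Pembrolizumab 4 at 43.4. The call was at the limit: it ended in 20 of the 28 alternatives (adjusted p 0.022 to 0.12), and among the fits that left out 1 library it passed only without ABL503 2, Control 2, Combination 2 or Combination 3. Havcr2, encoding TIM-3, was at 66.8 ± 4.39 and 84.0 ± 5.68 FPKM without overlap, but the difference of -0.33 did not pass (adjusted p = 0.33). Tigit and Entpd1, encoding CD39, differed by -0.32 and -0.44 (adjusted p = 0.39 and 0.49).

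Among stem-like and memory genes, 1 of 18 tested was higher in ABL503 and none lower, and 14 of the 18 differences were positive (median 0.23). Slamf6, a receptor of the SLAM family found on precursor-like exhausted T cells, was at 32.4, 41.5, 41.0, 40.5 and 39.5 FPKM in ABL503 and at 22.4, 26.4, 26.7, 17.7 and 20.8 in Pembrolizumab. It did not overlap (log2 difference 0.76, SE 0.15, adjusted p = 0.016). Control stood at 35.2 ± 5.58, and it was Pembrolizumab that differed from it (-0.60, adjusted p = 0.022), with ABL503 at 0.15 (0.76).

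Members of that list that did not pass were Ccr7, the lymph-node homing receptor, at 165 ± 30.6 and 85.7 ± 23.0 FPKM (0.96, adjusted p = 0.053), Id3, an inhibitor of E proteins, at 95.6 ± 16.9 and 50.3 ± 11.5 (0.93, adjusted p = 0.10), and Cd7, at 129 ± 35.2 and 68.2 ± 9.39 (0.89, adjusted p = 0.12). The ranges of Ccr7, Id3 and Cd7 did not overlap. Ccr7 passed in 9 of the 28 alternatives (adjusted p 0.024 to 0.16). Tcf7, encoding TCF-1, the transcription factor of the stem-like state, averaged 24.9 ± 10.6 and 11.9 ± 5.70 FPKM with overlap (1.05, adjusted p = 0.26). Il7r differed by -0.12 (adjusted p = 0.86).

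Effector and exhaustion transcription factors split, with 1 of 18 tested higher and 1 lower (median 0.08). Zbtb32, a zinc-finger repressor of lymphocytes, was at 27.9, 22.6, 32.7, 27.2 and 19.4 FPKM in ABL503 and at 72.5, 57.9, 49.4, 39.1 and 50.5 in Pembrolizumab. ABL503 was below in every library (log2 difference -1.02, SE 0.24, adjusted p = 0.038). Both groups lay above Control at 8.59 ± 2.43, by 1.51 for ABL503 (adjusted p = 0.0031) and by 2.53 for Pembrolizumab (4.9e-06). The call of Zbtb32 ended without ABL503 2, 4 or 5 or Pembrolizumab 1, 2, 3 or 5 (adjusted p 0.065 to 0.10) and without a filter (0.12), and ran from 0.011 to 0.12 over the alternatives.

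Bhlhe40, a repressor that supports cytokine production in T cells, averaged 395 ± 97.0 FPKM in ABL503 and 277 ± 15.3 in Pembrolizumab (0.48, SE 0.12, adjusted p = 0.044). ABL503 3, at 557 FPKM, stood above the rest. The call ended in 20 of the 28 alternatives (adjusted p 0.014 to 0.13), and among the fits that left out 1 library it passed only without ABL503 1, Control 1, Combination 1 or Combination 5. Irf8 was at 28.6 ± 3.27 and 45.3 ± 10.1 FPKM (-0.63, adjusted p = 0.088), and Zeb2, a factor of terminal effectors, differed by -0.45 (0.19). Tox, the factor of the exhausted state, was at 5.71 ± 1.13 and 4.22 ± 1.20 (0.38, adjusted p = 0.65).

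Of 11 cytokines tested, 1 was higher in ABL503 (median 0.09). Il2, the T-cell growth factor, was at 5.43, 8.74, 13.3, 8.57 and 7.83 FPKM in ABL503 and at 1.95, 2.84, 3.32, 2.19 and 1.54 in Pembrolizumab. The groups did not overlap (log2 difference 1.51, SE 0.34, adjusted p = 0.031). Control spread widely at 6.51 ± 4.93, and the Combination was lowest at 0.797. The call ended in 9 of the 28 alternatives (adjusted p 0.0068 to 0.096): without ABL503 2, 3, 4 or 5 or Pembrolizumab 1, 4 or 5 (0.057 to 0.096), at a pseudocount of 0.1 (0.067) and without a filter (0.095).

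Ifng, interferon gamma, was at 854 ± 106 FPKM in ABL503 and 963 ± 170 in Pembrolizumab (-0.16, SE 0.17, adjusted p = 0.72). Csf2, encoding GM-CSF, averaged 56.8 ± 27.3 and 37.1 ± 37.8 with wide overlap (1.17, SE 0.60, adjusted p = 0.41). Il16 and the epidermal growth factor ligand Areg differed by 0.22 and 0.50 (adjusted p = 0.47 and 0.58).

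Cxcl10 was the 1 of 8 chemokines that passed (median -0.04). It encodes an interferon-induced ligand of CXCR3, the receptor by which effector T cells enter inflamed tissue. Its gene lies at chr5:92346638-92348889. The 250 bases before its start (chr5:92348890-92349139, minus strand, RefSeq, GRCm38.p6) are shown because they hold a match to an interferon-stimulated response element, in capitals, whose first base is at -213.
Cxcl10: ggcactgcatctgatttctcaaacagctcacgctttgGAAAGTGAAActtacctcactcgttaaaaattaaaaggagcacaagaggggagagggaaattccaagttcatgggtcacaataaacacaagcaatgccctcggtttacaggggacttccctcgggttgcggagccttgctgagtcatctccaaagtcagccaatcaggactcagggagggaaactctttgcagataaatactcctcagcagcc

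Cxcl10 was at 100, 138, 119, 119 and 100.3 FPKM in ABL503 and at 71.8, 54.5, 41.4, 59.5 and 61.6 in Pembrolizumab. ABL503 was above in every library (log2 difference 1.00, SE 0.16, adjusted p = 0.0050). Control was at 116 ± 12.4 FPKM, from which ABL503 differed by -0.01 (adjusted p = 0.99), and Pembrolizumab was lower than it (-1.01, adjusted p = 0.0010). Of the other chemokines, Ccl5, Ccl4 and Xcl1 differed by -0.31, -0.40 and 0.46 (adjusted p = 0.31, 0.32 and 0.31). No gene of 25 in the type I interferon list passed (median -0.17), and 1 of 13 interferon-gamma induced GTPases was lower (Gbp7). The interferon element was found in 3 of the 77 higher genes with a promoter in the table (3.9%) and in 2 of 38 lower genes (5.26%, Gzma and Gbp7), beside 4.07% of tested genes.

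The interleukin 1 receptor family held 1 higher gene of 7 tested, and its median was 0.00. Il1r2 (chr1:40084692-40125230) encodes the decoy receptor that binds interleukin 1 without signalling. It was at 338, 281, 353, 415 and 562 FPKM in ABL503 and at 122, 58.6, 52.7, 63.6 and 113 in Pembrolizumab. The lowest ABL503 library was well above the highest Pembrolizumab library, and the means stood 4.75-fold apart (log2 difference 2.28, SE 0.39, adjusted p = 0.0061). Control was at 53.7 ± 17.0, from which ABL503 differed by 2.85 (adjusted p = 0.0019) and Pembrolizumab by 0.57 (0.46). Other members did not pass, with the interleukin 18 receptor chain Il18rap at -0.22 (adjusted p = 0.62), the inhibitory member Sigirr at -0.22 (0.55) and the antagonist Il1rn at 0.87 (0.40).

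NF-kB subunits and feedback targets, the pathway downstream of TNF receptors, gave 2 higher genes of 20 tested and none lower, with 17 of 20 differences positive and a median of 0.20. Birc2, encoding the ubiquitin ligase cIAP1, was at 35.3, 40.8, 39.4, 51.0 and 46.7 FPKM in ABL503 and at 25.3, 29.7, 28.2, 30.4 and 26.7 in Pembrolizumab, without overlap (log2 difference 0.58, SE 0.11, adjusted p = 0.014). Birc3, encoding cIAP2, averaged 29.9 ± 4.56 and 20.6 ± 3.11 FPKM (0.51, SE 0.11, adjusted p = 0.022), and Pembrolizumab 4, at 26.1, lay inside the ABL503 range. Its call ended without ABL503 3 (adjusted p = 0.068), ABL503 5 (0.053), Pembrolizumab 1 (0.071) or Pembrolizumab 3 (0.054) and in the fit of the 10 libraries alone (0.090), in a range of 0.0081 to 0.090. In Control, Birc2 was at 38.4 ± 3.84 and Birc3 at 31.9 ± 1.89; Pembrolizumab was below it for both (-0.44 and -0.61, adjusted p = 0.028 and 0.0029), and ABL503 did not pass (0.14 and -0.10, adjusted p = 0.68 and 0.80).

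Traf1, an adaptor of 4-1BB and its relatives, was at 146 ± 20.9 and 112 ± 9.95 FPKM (0.37, adjusted p = 0.091), and Tnip1, an inhibitor of NF-kB, differed by 0.39 (0.18). Tank, a TRAF-binding adaptor outside the list and one of the 12 largest rises drawn, was at 104, 110, 109, 101 and 100 FPKM in ABL503 and at 63.8, 58.7, 63.4, 52.6 and 76.9 in Pembrolizumab. The groups did not overlap (log2 difference 0.73, SE 0.12, adjusted p = 0.0050). The kappaB motif was searched only in a strict form, and sites that depart from it were not counted. That form was found in 2 of the 77 higher genes with a promoter in the RefSeq table (Ltb and Zfp617). It was found in none of 38 lower genes and in 0.495% of tested genes. A gene without this form, Cxcl10 included, may still hold a kappaB site, so these counts do not show which genes lack one.

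**Figure D3:**
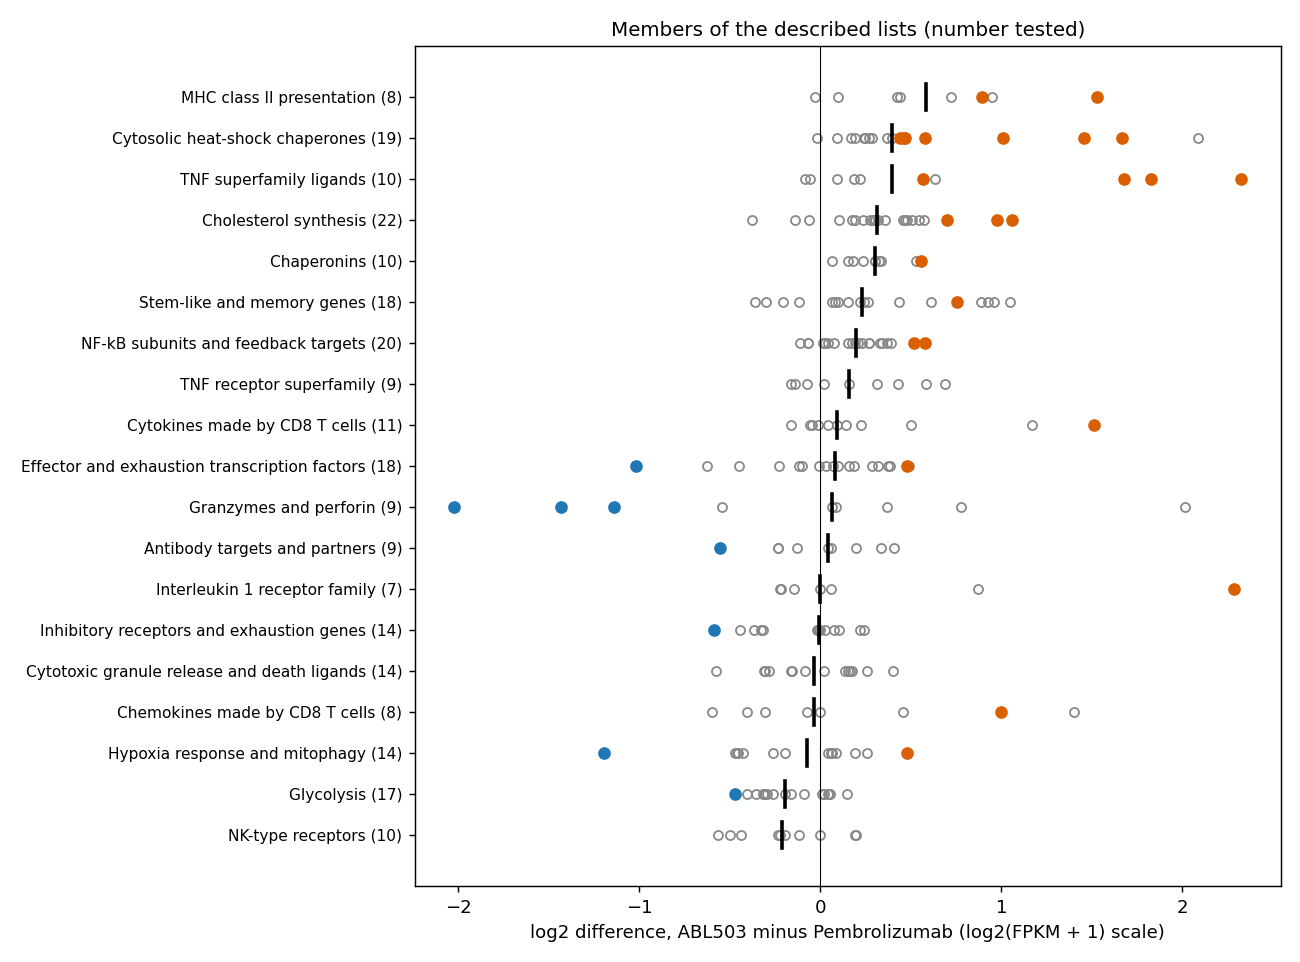
Log2 difference, ABL503 minus Pembrolizumab, of each tested member (points) of the 19 described lists (rows, number tested in brackets), with the list median as a black bar. Filled orange points are higher and filled blue points lower in ABL503 at an adjusted p under 0.05, open points did not pass; heat-shock chaperones hold 7 orange points, and granzymes and perforin hold 3 blue ones beside open points up to 2.02.

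Cytosolic heat-shock chaperones, which hold and refold unfolded proteins under the control of the factor HSF1, were the list with the most calls by number. Of 19 tested, 7 were higher in ABL503 and none lower, 18 differences were positive, and the median was 0.40. For comparison, 4 of 10 TNF superfamily ligands and 0.865% of all genes tested were higher. The lists differ in size and were chosen with earlier results of these data known. HSF1 binds inverted repeats of GAA, here searched as GAANNTTC, which reads the same on both strands, in the window from 250 bases before to 50 after each RefSeq start (GRCm38.p6). The 160 bases upstream of 4 chaperone genes higher in ABL503 are shown because each holds that motif, in capitals, with its first base at -104, -104, -124 and -139 in the order given. They are Hspa1a (chr17:34972157-34972316, minus strand), Hspa1b (chr17:34959239-34959398, minus strand), Dnaja1 (chr4:40722308-40722467, plus strand, 1 of 3 starts in the table) and the chaperonin gene Hspd1 (chr1:55087933-55088092, minus strand, 1 of 2 starts).
Hspa1a: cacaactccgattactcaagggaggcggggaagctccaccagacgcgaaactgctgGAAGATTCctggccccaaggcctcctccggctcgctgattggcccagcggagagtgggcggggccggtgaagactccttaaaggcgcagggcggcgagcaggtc
Hspa1b: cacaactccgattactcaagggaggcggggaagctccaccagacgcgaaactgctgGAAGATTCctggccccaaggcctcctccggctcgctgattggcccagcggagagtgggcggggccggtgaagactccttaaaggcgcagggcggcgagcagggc
Dnaja1: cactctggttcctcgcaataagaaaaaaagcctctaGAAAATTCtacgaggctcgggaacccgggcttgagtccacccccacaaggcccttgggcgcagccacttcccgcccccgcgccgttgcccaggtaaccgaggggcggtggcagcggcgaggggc
Hspd1: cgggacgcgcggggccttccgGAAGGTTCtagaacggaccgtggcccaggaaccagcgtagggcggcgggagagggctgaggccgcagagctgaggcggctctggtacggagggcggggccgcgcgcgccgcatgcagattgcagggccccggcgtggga

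The windows of Hspa1a and Hspa1b were identical at 159 of 160 bases. GAANNTTC was found in 14 of the 77 higher genes with a promoter in the table (18.2%), in 3 of 38 lower genes (7.89%), in 576 of 8087 tested genes (7.12%) and in 2582 of 32851 promoters in all (7.86%). Among cytosolic chaperones with a promoter in the table it was found in 9 of 16 tested and in 4 of 5 called. Those 4 were Hspa1a, Hspa1b, Dnaja1 and Hsph1, and Dnajb1 lacked it. Hspd1 is in the chaperonin list and not counted here, and the called Hspa8 and Hsp90aa1 had no promoter in the table. A match to GAANNTTC is a description of the sequence and no sign that the factor bound.

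Hspa8, the constitutive HSC70, was the most abundant of the called chaperones, at 2367, 2430, 2375, 1964 and 1954 FPKM in ABL503 and at 1463, 1525, 1431, 1205 and 1844 in Pembrolizumab. The groups did not overlap (log2 difference 0.58, SE 0.10, adjusted p = 0.0056). Control was at 1482 ± 81.5, and ABL503 was higher than it by 0.58 (adjusted p = 0.0048).

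Hspa1a and Hspa1b encode the stress-induced HSP70 in near-identical copies, so the division of reads between them is uncertain. Hspa1b was at 13.4, 19.9, 19.1, 8.58 and 9.90 FPKM in ABL503 and at 2.11, 3.53, 2.72, 7.35 and 8.31 in Pembrolizumab (log2 difference 1.45, SE 0.29, adjusted p = 0.016). Pembrolizumab 4 and 5 came close to ABL503 4 and 5. Hspa1a averaged 11.7 ± 4.501 and 3.25 ± 2.41 FPKM (1.67, SE 0.33, adjusted p = 0.016), with ABL503 5 at 6.90 below Pembrolizumab 5 at 7.23. The call of Hspa1a ended without ABL503 2 (adjusted p = 0.059) and without a filter (0.060), in a range of 0.0043 to 0.060. That of Hspa1b ended without ABL503 2 (0.059), ABL503 3 (0.0502) or Pembrolizumab 1 (0.0507), without a filter (0.060) and in the fit of the 10 libraries alone (0.060), in a range of 0.0081 to 0.060. Against Control, ABL503 was higher by 1.80 for Hspa1a and 1.82 for Hspa1b (adjusted p = 0.011 and 0.0037), and Pembrolizumab differed by 0.13 and 0.36 (0.88 and 0.53).

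Dnaja1, a co-chaperone of HSP70, was at 269, 312, 243, 247 and 258 FPKM in ABL503 and at 189, 192, 191, 181 and 222 in Pembrolizumab, without overlap (log2 difference 0.44, SE 0.09, adjusted p = 0.018). Its call ended without ABL503 2 (adjusted p = 0.062) and without Pembrolizumab 4 (0.051), in a range of 0.0049 to 0.062. The remaining called members, named outside the rule, were Hsph1 (HSP110), Hsp90aa1 (the inducible HSP90) and Dnajb1 (HSP40). They differed by 1.01, 0.46 and 0.47 (adjusted p = 0.044, 0.035 and 0.037). Each lost its call in several alternatives: Hsph1 in 16 of 28 (adjusted p 0.028 to 0.14), Hsp90aa1 in 8 (0.011 to 0.10) and Dnajb1 in 10 (0.024 to 0.11). Left-out libraries that ended the call of Hsp90aa1 were ABL503 2 and 5 and Pembrolizumab 1 to 4, and of Dnajb1 ABL503 2, 3 and 4 and Pembrolizumab 1 to 4. Among the fits that left out 1 library, Hsph1 passed only without ABL503 4, Pembrolizumab 5, Control 1, 2, 4 or 5, or Combination 3 or 5.

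Chaperonins, the ring complexes that fold proteins in mitochondria and in the cytosol, had 10 of 10 differences positive with a median of 0.30, and 1 passed. Hspd1, the mitochondrial HSP60, averaged 135 ± 29.8 FPKM in ABL503 and 90.5 ± 13.9 in Pembrolizumab, with overlap (0.56, SE 0.14, adjusted p = 0.045). The call ended in 19 of the 28 alternatives (adjusted p 0.024 to 0.14), and among the fits that left out 1 library it passed only without ABL503 4, ABL503 5, Pembrolizumab 5, Control 5, Combination 3 or Combination 5. Tcp1, Cct7 and Cct5, subunits of the cytosolic ring, differed by 0.30, 0.30 and 0.33 (adjusted p = 0.090, 0.17 and 0.18). Of 16 tested genes of the unfolded protein response of the endoplasmic reticulum, 1 passed (Herpud1, higher), and the median was 0.02.

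Of 17 tested genes of glycolysis, 1 was lower in ABL503 and none higher, 11 differences were negative, and the median was -0.20. Aldoa, aldolase A, was at 784, 586, 745, 655 and 666 FPKM in ABL503 and at 1123, 978, 862, 824 and 986 in Pembrolizumab. ABL503 was below in every library (log2 difference -0.47, SE 0.10, adjusted p = 0.028). Control was lower still at 507 ± 69.1, from which Pembrolizumab differed by 0.91 (adjusted p = 4.3e-05) and ABL503 by 0.44 (0.057). The call ended without ABL503 2, 4 or 5 or Pembrolizumab 1, 2 or 5 (adjusted p 0.054 to 0.087), without a filter (0.072), with quantile normalization (0.057) and in the fit of the 10 libraries alone (0.058), in a range of 0.0047 to 0.087. Pkm, Gpi1 and Ldha, later or neighbouring enzymes of the pathway, differed by -0.41, -0.29 and -0.32 (adjusted p = 0.17, 0.18 and 0.21).

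In the list of hypoxia response and mitophagy, 1 of 14 tested was higher (Bhlhe40, above) and 1 lower, with a median of -0.08. Bnip3, a mitophagy receptor and target of HIF-1, was at 31.7, 26.8, 19.5, 13.5 and 16.2 FPKM in ABL503 and at 57.7, 58.5, 45.0, 37.1 and 46.9 in Pembrolizumab, without overlap (log2 difference -1.20, SE 0.28, adjusted p = 0.040). Control was at 10.6 ± 3.90, and Pembrolizumab was higher than it by 2.16 (adjusted p = 0.00025), ABL503 by 0.96 (0.16). The call ended in 12 of the 28 alternatives (adjusted p 0.011 to 0.13), which were the fits without ABL503 2, 3, 4 or 5, without any 1 of the Pembrolizumab libraries, or without Combination 4 (0.0501 to 0.11), the fit with a block for the replicate number (0.065) and that without a filter (0.13). Egln1 and Pdk1, further HIF targets, differed by -0.46 and -0.45 (adjusted p = 0.085 and 0.36). A hypoxia element, ACGTG, was found in 22 of 77 higher genes (28.6%) and 11 of 38 lower genes (28.9%) with a promoter in the table, near its share of 29.9% of tested genes.

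In cholesterol synthesis, 3 of 22 tested genes were higher in ABL503, none lower, and 19 differences were positive, with a median of 0.31. Idi1, which isomerises the isoprenoid unit, was at 20.4, 20.1, 27.7, 17.2 and 17.4 FPKM in ABL503 and at 12.5, 11.9, 9.61, 6.87 and 9.28 in Pembrolizumab, without overlap (log2 difference 0.97, SE 0.20, adjusted p = 0.018). Fdps, which joins such units into farnesyl diphosphate, averaged 70.8 ± 8.40 and 35.0 ± 13.6 FPKM (1.06, SE 0.24, adjusted p = 0.034). Cyp51, the lanosterol demethylase, averaged 17.6 ± 3.23 and 10.5 ± 1.92 (0.70, SE 0.16, adjusted p = 0.038). The ranges of Fdps and Cyp51 did not overlap either. Msmo1, a sterol oxidase, was at 30.9 ± 4.29 and 20.3 ± 1.62 (0.57, adjusted p = 0.068) and passed in 6 of the 28 alternatives (adjusted p 0.030 to 0.17).

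These calls did not hold in every fit. That of Idi1 ended without ABL503 2 (adjusted p = 0.0502), ABL503 3 (0.059) or Pembrolizumab 4 (0.056) and without a filter (0.060), in a range of 0.0086 to 0.060. That of Fdps ended without ABL503 2, 3, 4 or 5 or Pembrolizumab 3, 4 or 5 (0.062 to 0.088) and without a filter (0.11), in a range of 0.012 to 0.11. That of Cyp51 ended without ABL503 2, 3, 4 or 5 or Pembrolizumab 1, 2, 3 or 5 (0.058 to 0.11), without a filter (0.095), with quantile normalization (0.053) and in the fit of the 10 libraries alone (0.056), in a range of 0.013 to 0.11.

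MHC class II presentation, the pathway by which antigen-presenting cells show peptides to CD4+ T cells, had 2 of 8 tested genes higher in ABL503, none lower, and a median of 0.58. Cd74, the invariant chain, was at 147, 170, 117, 90.8 and 79.5 FPKM in ABL503 and at 42.0, 50.3, 31.8, 69.3 and 20.9 in Pembrolizumab. The groups did not overlap (log2 difference 1.53, SE 0.32, adjusted p = 0.022). Control was at 115 ± 48.8, close to ABL503 (0.11, adjusted p = 0.94), and Pembrolizumab was below it (-1.42, adjusted p = 0.014). H2-Oa, a chain of the DO molecule that modulates peptide loading, averaged 9.40 ± 0.866 and 4.69 ± 1.19 FPKM without overlap (0.89, SE 0.20, adjusted p = 0.036).

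The classical chain H2-Ab1 was at 51.6, 55.8, 67.0, 27.1 and 15.1 FPKM in ABL503 and at 12.7, 30.2, 16.7, 51.2 and 7.74 in Pembrolizumab, with wide overlap (0.95, SE 0.48, adjusted p = 0.40). H2-DMb2 differed by 0.42 (adjusted p = 0.39). The call of Cd74 ended without ABL503 2 (adjusted p = 0.073), ABL503 3 (0.053), Pembrolizumab 3 (0.059) or Pembrolizumab 5 (0.058) and without a filter (0.081), in a range of 0.0097 to 0.081. That of H2-Oa ended without any 1 of the ABL503 libraries or without Pembrolizumab 1, 3, 4 or 5 (0.052 to 0.097), with a block for the replicate number (0.066) and without a filter (0.095), in a range of 0.011 to 0.097.

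Markers of cells that carry MHC class II were read beside these values. In the dendritic-cell list, 5 of 10 genes were tested, 1 was higher and none lower, the median difference was 0.32, and its summed level ran from 22.2 to 38.6 FPKM in ABL503 and from 14.3 to 23.8 in Pembrolizumab. The gene that passed was Zbtb46, a transcription factor of classical dendritic cells. It was at 5.87, 6.19, 8.38, 6.89 and 6.85 FPKM in ABL503 and at 3.41, 1.88, 2.63, 1.69 and 1.06 in Pembrolizumab, without overlap (log2 difference 1.36, adjusted p = 0.0050). Siglech, of plasmacytoid dendritic cells, ran from 2.25 to 16.5 FPKM and from 0 to 4.42 (1.06, adjusted p = 0.39), and Batf3 from 4.88 to 11.2 and from 2.42 to 8.41 (0.32, adjusted p = 0.71). Itgax ran from 1.47 to 3.03 FPKM and from 2.28 to 4.41, Xcr1 from 2.71 to 4.63 and from 3.96 to 5.30 (-0.38 and -0.14, adjusted p = 0.60 and 0.72), and Flt3 reached at most 0.303. In the myeloid list, 10 of 18 genes were tested and 1 was lower (Ly6c2, which T cells also express). Of the 10 differences 6 were positive and 4 negative, with a median of 0.12. The summed level of the list ran from 1462 to 1786 FPKM in ABL503 and from 1928 to 3494 in Pembrolizumab. That sum includes Ly6c2, so it does not measure myeloid cells. The call of Ly6c2 ended without ABL503 2, 3 or 4 or Pembrolizumab 3 or 4 (adjusted p 0.052 to 0.072), without a filter, with quantile normalization and in the fit of the 10 libraries alone, in a range of 0.015 to 0.081. Of the defining myeloid genes, Lyz2 ran from 0.362 to 39.3 FPKM and from 2.07 to 29.9, and C1qa was listed at 0 in every ABL503 library and reached 0.25 in Pembrolizumab. In the B-cell list, 2 of 10 genes were tested and none passed, and its summed level ran from 32.8 to 59.5 and from 25.9 to 46.2. That sum leaves out the immunoglobulin gene Igkc, which is outside the list. Igkc had a mean log2(FPKM + 1) of 7.06 over the 10 libraries and did not pass (0.36, adjusted p = 0.83). The part of these cells in the results for MHC class II genes and for Cd83 was not tested.

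Cd83, a surface protein of activated dendritic cells and lymphocytes that stabilises MHC class II, was among the largest rises. It was at 24.5, 33.9, 55.0, 43.7 and 30.2 FPKM in ABL503 and at 10.3, 9.14, 6.92, 10.2 and 12.5 in Pembrolizumab. The lowest ABL503 library had about the Control mean of 23.2 ± 9.51, and no library of the 2 groups overlapped (log2 difference 1.79, SE 0.26, adjusted p = 0.0045). Pembrolizumab was lower than Control (-1.09, adjusted p = 0.019), and ABL503 did not pass against it (0.71, adjusted p = 0.30).

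Of the other largest rises, Tff1, a secreted trefoil peptide best known from gastric mucosa, was at 158, 137, 92.6, 154 and 147 FPKM in ABL503 and at 21.0, 25.0, 24.04, 31.7 and 39.7 in Pembrolizumab. ABL503 was above in every library, and the means were 4.87-fold apart (log2 difference 2.26, SE 0.31, adjusted p = 0.0045). Control was at 35.7 ± 18.2. As Tff1 is an epithelial gene, the list of epithelial and MC38 tumour markers was read beside it: 4 of 10 genes were tested, none passed, and the summed level ran from 10.03 to 14.2 FPKM in ABL503 and from 6.86 to 14.7 in Pembrolizumab. Epcam ran from 4.72 to 7.83 and from 2.15 to 6.57 FPKM, and Krt8 reached 1.02 and 0.277. The part of tumour cells in the result for Tff1 was not tested.

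Plscr1, an interferon-induced phospholipid scramblase, was at 51.7, 52.7, 61.6, 61.6 and 61.2 FPKM in ABL503 and at 35.8, 32, 24.1, 33.0 and 25.8 in Pembrolizumab. The spread within each group was small beside the gap (log2 difference 0.93, SE 0.15, adjusted p = 0.0050), and Control, at 27.3 ± 4.73, resembled Pembrolizumab. Nmrk1, a kinase that makes NAD from nicotinamide riboside, averaged 213 ± 25.3 and 116 ± 28.1 FPKM (0.89, SE 0.16, adjusted p = 0.011), and Tspan13, a tetraspanin, 80.4 ± 8.97 and 48.9 ± 3.83 (0.70, SE 0.13, adjusted p = 0.0093). Both had separate ranges.

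The other largest falls were smaller in size than those of Klra5, the granzymes and perforin. Cnih2, which escorts AMPA receptors in neurons, averaged 5.69 ± 1.60 FPKM in ABL503 and 13.0 ± 1.62 in Pembrolizumab (-1.09, SE 0.21, adjusted p = 0.013). Chchd10, a protein of the mitochondrial intermembrane space, averaged 43.8 ± 14.5 and 76.8 ± 6.48 (-0.86, SE 0.17, adjusted p = 0.016). Its call ended without a filter (adjusted p = 0.056) and in the fit of the 10 libraries alone (0.064), in a range of 0.0041 to 0.064.

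Smap2, a GTPase-activating protein of vesicle traffic, averaged 24.9 ± 2.08 and 37.5 ± 4.73 FPKM (-0.57, SE 0.11, adjusted p = 0.016), and Tpst2, a Golgi enzyme that sulfates tyrosines, 47.4 ± 6.70 and 69.2 ± 6.62 (-0.54, SE 0.11, adjusted p = 0.016). Tram1, a protein of the translocation channel of the endoplasmic reticulum, averaged 41.0 ± 2.94 and 59.3 ± 3.90 (-0.52, SE 0.10, adjusted p = 0.013), and Ybx3, a cold-shock-domain protein that binds RNA, 143 ± 13.2 and 206 ± 16.9 (-0.52, SE 0.09, adjusted p = 0.0059). These 6 genes had separate ranges. For Tram1 and Ybx3, Pembrolizumab was higher than Control by 0.74 and 0.79 (adjusted p = 0.00025 and 3.8e-05), while ABL503 differed by 0.22 and 0.27 (0.41 and 0.22).

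**Figure D4:**
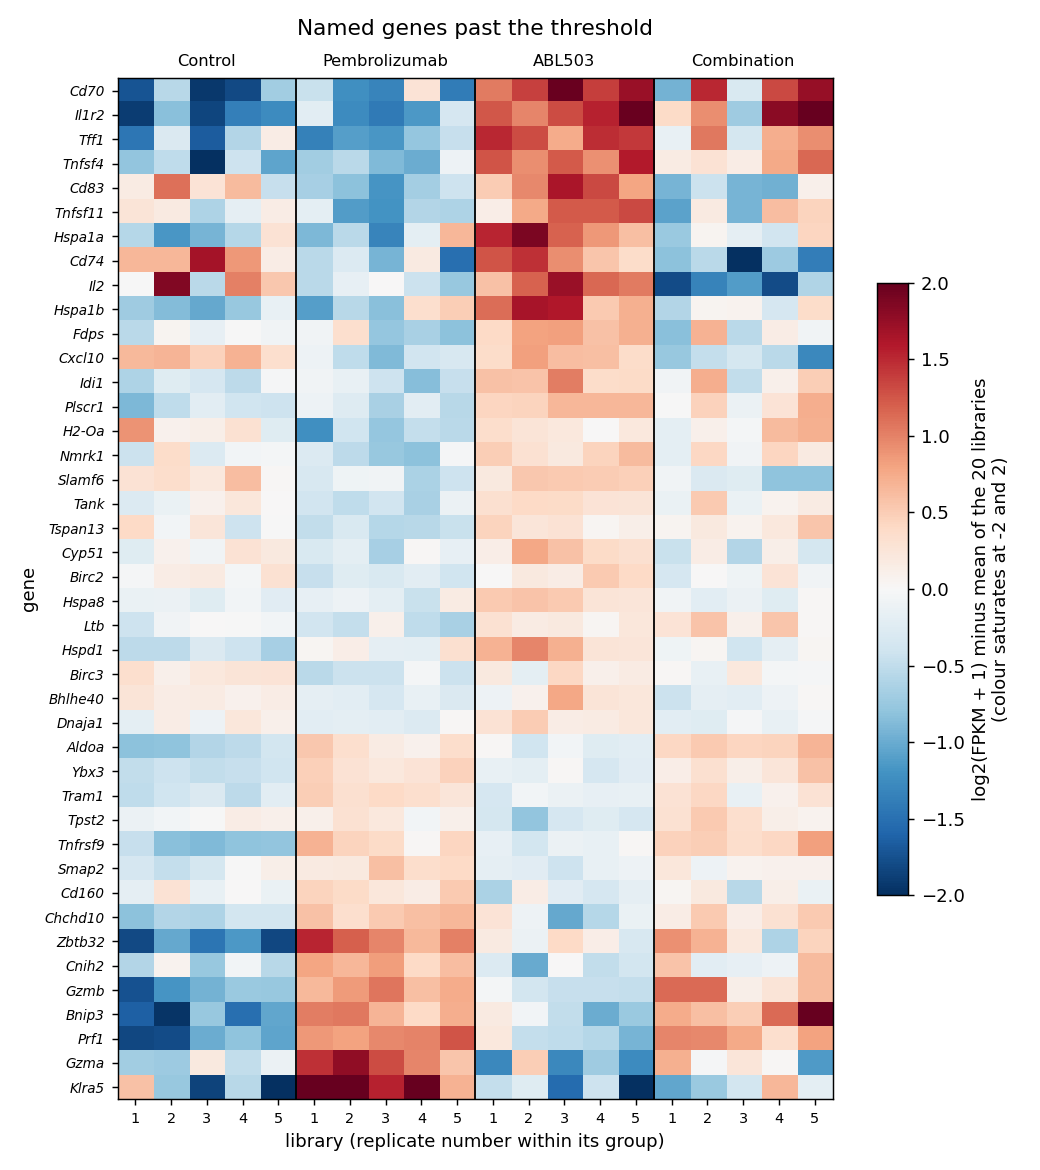
Log2(FPKM + 1) minus the mean of the 20 libraries (colour, saturating at -2 and 2) for the named genes past the threshold (rows, sorted by log2 difference from Cd70 to Klra5) in each library (columns, by group). ABL503 and Pembrolizumab are opposite in colour in most rows; Control resembles Pembrolizumab for Cd70, Il1r2 and Tnfsf4, and resembles ABL503 for Klra5, Gzma and Cxcl10.

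Further lists gave few or no calls. For proliferation, none of 21 genes of S phase (median 0.22) and none of 21 of G2 and mitosis (0.02) passed, and Mki67 was at 7.59 ± 0.547 and 7.30 ± 1.79 FPKM (0.08, adjusted p = 0.90). The lists of the T-cell receptor complex (17 tested, median -0.08), AP-1 and immediate early genes (16, -0.02), NR4A and EGR factors (13, 0.08), integrins (13, -0.04), the BCL2 family (10, 0.03) and MHC class I with the immunoproteasome (12, -0.14) gave none. Nor did nuclear subunits of oxidative phosphorylation (27, -0.09), mitochondrially encoded genes (13, 0.14, all positive) and cytosolic ribosomal proteins (25, -0.09). Differences were negative for 19 of the 27 nuclear subunits, 20 of the 25 ribosomal proteins and 11 of the 12 genes of the MHC class I list. At the threshold, single genes passed in the lists of homing receptors (Gpr183, higher, 1 of 10), JAK-STAT feedback (Stat4, higher, 1 of 14), receptors of the common gamma chain and IL12 (Il10rb, lower, 1 of 13) and serpins (Serpina3g, higher, 1 of 7). These 4 genes, with Gbp7, Herpud1 and Zbtb46 above, were chosen after their values were seen, each as the only call of its list. Gpr183 and Zbtb46 passed in all 28 alternatives. The call of Stat4 (adjusted p = 0.044) ended in 18 of the 28 (0.025 to 0.13 over all of them), and among the fits that left out 1 library it passed only without Control 1, 2 or 3, Pembrolizumab 2 or Combination 1 or 5. That of Gbp7 (0.040) ended in 13 (0.021 to 0.10), among them the fits without ABL503 1, 2, 3 or 5, any 1 of the Pembrolizumab libraries or Combination 4. That of Herpud1 (0.040) ended in 11 (0.015 to 0.12), among them the fits without ABL503 2, 3 or 4 or Pembrolizumab 1, 3, 4 or 5. That of Serpina3g (0.034) ended in 10 (0.013 to 0.10), among them the fits without ABL503 1, 2, 4 or 5 or Pembrolizumab 2, 3, 4 or 5. That of Il10rb (0.018) ended in 5 (0.0028 to 0.066), which were the fits without ABL503 2 or 4 or Pembrolizumab 3 or 4 and that of the 10 libraries alone.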

How the data were processed

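CD8+ T cells were sorted from tumours, and their RNA was copied and made into libraries with the SMART-Seq v4 kit, per the labels' protocols; the kit does not mark strand. The authors used HISAT2 and StringTie with the build GRCm38 (mm10), per the submitters' processing notes; versions, annotation and any scaling are not given in the sources used here. The deposited values are taken as FPKM: they are not whole numbers, and column sums differ. No counts are used here, so precision rests on the spread between 5 libraries.

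Genes at 1 FPKM or more in at least 5 of the 20 libraries were kept. limma 3.58.1 (R 4.3.3) with an intensity trend fitted 1 mean per group to log2(FPKM + 1) of all 20 libraries (16 residual degrees of freedom). In simulated data the fit recovered 33 of 67 changes of 1.5-fold in FPKM + 1, 58 of 67 of 2-fold and 65 of 66 of 4-fold. It made 3 wrong calls among 11794 genes. The changes were placed only in genes whose mean log2(FPKM + 1) in Pembrolizumab was above 2, so recovery at lower levels was not examined. The simulated noise was independent between genes, without effects shared by a library, so the real data may fare worse. The contrast was ABL503 minus Pembrolizumab, two-sided, with Benjamini-Hochberg adjustment over 11794 genes and a threshold of 0.05. Tables and figures were made with Python 3.11.15, pandas 2.3.3 and matplotlib 3.10.9.

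Alternatives were a pseudocount of 0.1, no filter, a filter at 5 FPKM, quantile normalization, equal column sums, array weights, a block for the replicate number, a fit of the 10 compared libraries, and leaving out each library. No set tests were run. The 51 lists (710 genes, 602 tested), of which 19 are described in detail, and the comparison itself were chosen with earlier results of these data known.

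Named genes were the 12 largest rises and up to 12 largest falls (10 qualified) among called genes whose mean log2(FPKM + 1) was 3 or more and that passed in all 20 fits that left out 1 library, leaving out predicted models and receptor segments. Up to 4 members of smallest p per described list and a panel of 19 genes were added. Gene positions and promoters come from RefSeq (GRCm38.p6); 88.9% of symbols had a position. One marker gene is not reported here.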

Additional observations from a re-analysis of the deposited data

Results flagged for a closer look

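Single libraries that stood apart from the other 4 of their group were looked for in 122 genes, named genes and cell-type markers, over 244 groups. A library was taken when its gap to the nearest other, divided by the range of its group, was above Dixon's 95% critical value of 0.71 for 5 samples. There were 26 such cases. The critical value is set for about 1 in 20 groups of normally distributed values. That rate does not hold for markers near 0, where 1 value above 0 beside zeros is always taken. The number of cases was therefore not compared with chance.

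Among genes past the threshold, Slamf6 was low in ABL503 1 at 32.4 FPKM (others 39.5 to 41.5), Gzma high in ABL503 2 at 465 (others 135 to 202), Gzmb high in ABL503 1 at 1266 (others 927 to 1007) and Tpst2 low in ABL503 2 at 35.8 (others 48.8 to 53.2). Ltb was high in Pembrolizumab 3 at 152 FPKM (others 90.4 to 108), Birc3 in Pembrolizumab 4 at 26.1 (others 18.2 to 19.6) and Dnaja1 in Pembrolizumab 5 at 222 (others 181 to 192). Each of these except Tpst2 in ABL503 2 lay on the side of the other group and brought the groups closer together.

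Among named genes that did not pass, Tox stood at 7.64 FPKM in ABL503 4, Fas at 56.5 in ABL503 5, Tnfrsf4 at 448 in Pembrolizumab 1, Klrk1 at 201 in ABL503 4 and Xcl1 at 419 in ABL503 2. Il1rn stood at 2.09 in Pembrolizumab 4 and Egln1 at 12.7 in ABL503 1. Tnfrsf4 in the other Pembrolizumab libraries ran from 212 to 266 FPKM.

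Among markers of other cells, most cases were a low value beside zeros. Csf1r was at 0.285 FPKM in Pembrolizumab 1, Adgre1 at 0.193 in ABL503 1, Ms4a1 at 0.0132 and Col1a1 at 0.0201 in ABL503 3, Ncr1 at 0.471 in ABL503 2 and 0.46 in Pembrolizumab 4, Hbb-bs at 0.242 and Pf4 at 0.296 in ABL503 1, and Pf4 at 4.22 in Pembrolizumab 3. Foxp3, the factor of regulatory T cells, was at 1.46 in ABL503 2 (others 0.0199 to 0.213), Epcam at 7.83 in ABL503 3 (others 4.72 to 5.34) and Xcr1 at 5.30 in Pembrolizumab 5 (others 3.96 to 4.31).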

How the results depend on the processing

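Of 42 named genes past the threshold, 24 passed in every fit that left out 1 library, and none changed sign in any alternative. The count of 151 calls became 67 without a filter, where 31149 genes were tested, and 301 with array weights, of which 150 were also among the 151. Genes higher in ABL503, 102 at first, numbered 53 without a filter, 154 with equal sums and 193 with array weights. Genes lower, 49 at first, numbered 14 without a filter and 108 with array weights. Leaving out 1 library gave 54 to 218 calls, 39 to 135 higher and 15 to 83 lower, with the extremes without ABL503 2 and without ABL503 1; for the lower genes, Pembrolizumab 5 left 26. The cause was not tested. The other settings stayed within 1.5 times the count: 141 calls at a pseudocount of 0.1, 172 with the stricter filter, 127 with quantile normalization, 197 with equal sums and 111 with the 10 libraries alone. The share of calls that were higher in ABL503 was 67.5%, against 79.1% without a filter, 78.2% with equal sums and 57.5% with quantile normalization. Medians of 8 lists near 0 changed sign with equal sums and 1 with quantile normalization. Mki67, not past the threshold, differed by 0.08, and by -0.030 (without Pembrolizumab 1) to 0.15 when 1 library was left out. Replicate numbers are shared by the groups but no label ties them: same-numbered libraries of ABL503 and Pembrolizumab correlated in their deviations by 0.014 to 0.071, and not each correlated best with its own number. With the replicate number as a block 120 genes passed (80 higher, 40 lower), of which 108 were among the 151. Precision is limited by 5 libraries a side and by unknown depth.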
